A study of Rattus norvegicus with 4 samples.

Results

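Diabetic and control fracture callus were compared on day 11 of repair, on 2 of the 4 arrays of the series. The members were chosen by their titles: 1 array of diabetic and 1 of control callus, each hybridised with RNA pooled from 5 animals. All animals were male Sprague–Dawley rats of 12 weeks with a closed fracture of the right femoral shaft, held by a wire of 1.25 mm in the marrow canal. The diabetic rats had received 1 intravenous dose of 40 mg/kg streptozotocin and are labelled with a blood glucose over 300 mg/dl, while the control rats had received sodium chloride and are labelled with a normal glucose. The other pair of arrays holds diabetic and control callus of day 5, from pools built in the same way. Each group is 1 pool on 1 array, so no difference below has an error between animals or a p-value, and condition and array cannot be told apart.

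Fracture callus is the repair tissue that bridges a broken bone. It begins as clot, inflammatory infiltrate and granulation tissue, passes through a stage of cartilage, and is then mineralised, invaded by vessels and replaced by bone. Streptozotocin destroys the insulin-producing beta cells of the pancreas and is widely used to model insulin-deficient diabetes, in which fracture repair is known to be impaired. The question of the comparison is how the transcript content of the repair tissue differs between these states at the later of the sampled times. A callus array reads all cells of the tissue together, so fewer cells of a type and less RNA per cell cannot be told apart.

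The arrays list genes by Ensembl identifier. No identifier could be paired with a symbol here, since 0 of the 20174 array identifiers occur in the table of 47357 RefSeq genes that was used, which lists no Ensembl identifiers. For that reason the marker lists of cartilage, bone, muscle, fat and immune cells were not applied, the tissue label was not checked against its markers, no sequence is shown, and at most 2 identifiers are given for each direction. The genes are described by their levels and their behaviour over the 4 pools.

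Of the 20174 gene probes, 15075 (74.7%) had a value on both day 11 arrays in the authors' table. A further 888 had a value on the diabetic array alone and 786 on the control array alone, and 3425 had one on neither. Values are linear intensities scaled by the authors so that the listed genes of each array have a median of 25. They ran from 0.88 to 33373.5 on the control array and from 0.88 to 32806.5 on the diabetic array. Spots without a gene probe show how far a low value can be trusted: the highest of 96 negative control spots reached 4.55 in control and 3.40 in diabetic callus, and the highest of 809 spots marked as lacking a probe reached 18.3 and 16.5.

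Repeated control spots gave the error that can be measured within the arrays. The 24 spots of 1 positive control probe had a mean of 6661 (coefficient of variation 11.9%) in control and of 6397 (8.08%) in diabetic callus. Their log2 ratios, diabetic over control and spot against spot, had a mean of -0.05 and an SD of 0.0998. The other positive control probe was less even, with an SD of 1.29 over its 24 log2 ratios. Of these 24 ratios 2 were past 2-fold, and the lowest was -6.13, so a single spot can be far off. The median log2 ratio of the 24 printed blocks of the array ran from -0.11 to 0.18, and the share of genes at least 2-fold higher in a block from 5.89% to 10.4%.

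With both arrays scaled to a median of 25, diabetic callus differed from control callus on day 11 in both directions to a like extent. The scaling itself favours like counts. Of the 15075 genes, 1211 (8.03%) exceeded control by 2-fold or more and 1083 (7.18%) fell short of it by as much, which makes 15.2% of genes past 2-fold in either direction. Past 4-fold were 315 higher (2.09%) and 322 lower genes (2.14%), together 4.23%. The counts depend on the background: normexp with an offset of 50 and quantile normalization gave 356 higher and 349 lower genes, and subtraction of the local background 2538 and 2014. Which direction is the more frequent depends on the scaling, with 1124 higher and 1154 lower genes after scaling to the 75th percentile. The median log2 ratio was 0.05, the middle 50% of genes (the quartiles) lay between -0.30 and 0.39, and 69.2% of genes were within 1.5-fold. The tails were unequal in the authors' values. At least 16-fold differences were found for 56 higher and 39 lower genes, at least 32-fold for 27 and 10, and at least 64-fold for 11 and 3. Counts at 16-fold and above were not run with the other settings, and they leave out genes listed on 1 array.

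**Figure D1:**
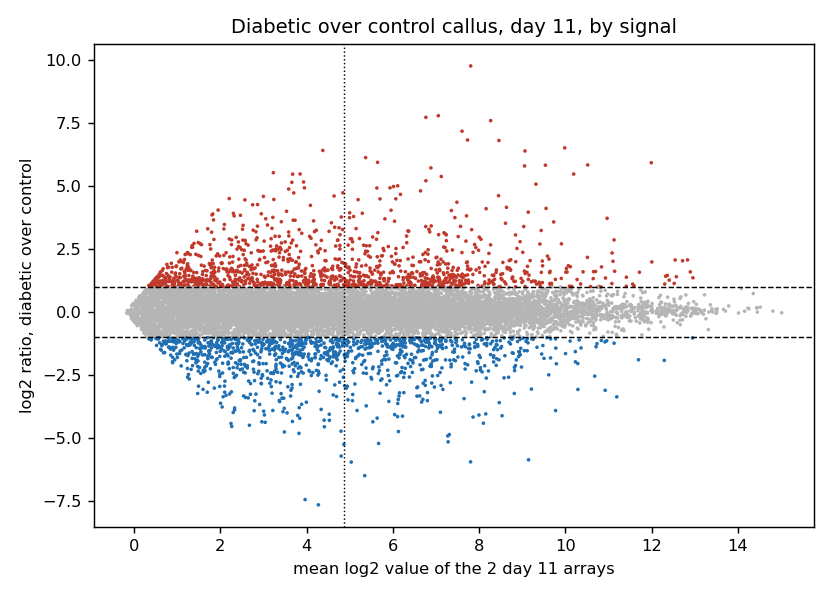
Log2 ratio of diabetic over control callus on day 11 (vertical axis) against the mean log2 value of the 2 arrays (horizontal axis) for the 15075 genes with a value on both. Red points are the 1211 genes past 2-fold on the higher and blue points the 1083 on the lower side, dashed lines mark 2-fold and the dotted line the median signal; the ratios centre near 0 over the whole range of signal.

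The genes past 2-fold were spread over the whole range of signal. With the genes split into 4 equal bins by their mean signal, 363 were higher and 301 lower in the dimmest bin, 312 and 328 in the next, 254 and 257 in the third, and 282 and 197 in the brightest. In the brightest bin, which begins at a value of 119, 7.48% of genes were thus past 2-fold on the higher and 5.23% on the lower side. The scatter of the bulk of genes narrowed with signal. The robust SD of the log2 ratio, taken from the median absolute deviation, was 0.66 in the dimmest bin and 0.42 in the brightest. How much of this scatter is spot error was not tested, since the repeated control probes differed widely in their own SD.

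The 4 identifiers that lead the 2 directions were taken among the 7537 genes with a mean signal above the median. ENSRNOG00000000545 had a value of 7.58 on the control and 6601 on the diabetic array of day 11, and of 4.90 and 307 on those of day 5. The diabetic pool was thus far above the control pool on both days, and the diabetic pool of day 11 stood highest. Its log2 ratio was 9.77 on day 11 and 5.97 on day 5. Its control values lie below the highest spot without a probe, so the size of the ratio rests on a dim signal. The direction rests on a bright signal, but each identifier has a single spot on each array. A spot of the less even positive control probe, which is bright, gave a log2 ratio of -6.13.

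ENSRNOG00000013228 had a value of 8.93 on the control and 1979 on the diabetic array of day 11, and of 1.17 and 15.3 on those of day 5. Only the diabetic pool of day 11 was bright. The log2 ratio was 7.79 on day 11, where the control value lay below the highest spot without a probe, 18.3. Its control value of day 5 was below the highest negative control spot of that array, 3.31, so no ratio is given for that day. For both identifiers all 7 other ways of computing the values kept the day 11 ratio positive, the smallest being 7.41 and 5.62 on the log2 scale. These computations reuse the spots on which the genes were picked as extreme, so the kept direction is no separate support.

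ENSRNOG00000036603 led the lower genes, with a value of 386 on the control and 4.31 on the diabetic array of day 11, and of 23.1 and 2.79 on those of day 5. The control pool was the higher of the pair on both days, and the control pool of day 11 was the brightest of all. The log2 ratio was -6.48 on day 11, where the diabetic value lay below the highest spot without a probe, 16.5. The diabetic value of day 5 was below the highest negative control spot of its array, 3.22, so that again no ratio is given for that day. ENSRNOG00000028259 had a value of 258 on the control and 4.18 on the diabetic array of day 11, and of 34.1 and 4.19 on those of day 5. Its diabetic value of day 11 was a little above the highest negative control spot, while its control value was the brightest of the 4. The log2 ratio was -5.94 on day 11 and -3.02 on day 5. Its diabetic values of both days lay below the highest spot without a probe, 16.5 on day 11 and 12.5 on day 5. Both lower identifiers remained lower in diabetic callus on day 11 in all 7 other computations, with the smallest log2 differences at -3.64 and -3.11. Here too the computations reuse the spots on which the genes were picked, so this is no separate support. Among the genes dimmer than the median, 2 had ratios of -7.64 and -7.43 on the log2 scale, with control values of 274 and 206 and diabetic values of 1.37 and 1.19 at the bottom of the scale.

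The 15 leading higher genes had log2 ratios from 5.80 to 9.77 and the 15 leading lower genes from -4.14 to -6.48. The next gene in rank lay at 5.72 on the higher and -4.12 on the lower side. On the higher side the values ran from 4.94 to 522 in control callus (median 22.2) and from 346 to 31737.4 in diabetic callus (median 3966). For 6 of the 15 the control value was below that of the brightest spot without a probe. On the lower side the values ran from 179 to 4313 in control callus (median 386) and from 4.18 to 74.4 in diabetic callus (median 16.4), of which 8 were below the brightest spot without a probe.

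The day 5 arrays show how these 30 genes stood earlier. All 15 leading higher genes were brightest in the diabetic pool of day 11, and in all 15 that pool was at least 2-fold above the diabetic pool of day 5. Of the 15 leading lower genes, 12 were brightest in the control pool of day 11, and in 10 that pool was at least 2-fold above the control pool of day 5. The 30 genes were picked by their day 11 ratios, which favours these counts. Of all 14683 genes with a value on all 4 arrays, 19.6% were brightest in the diabetic and 20.1% in the control pool of day 11. The pools with the low values differed less uniformly between the days. Among the higher genes, the control value of day 11 was at least 2-fold above that of day 5 in 7 and at least 2-fold below it in 4. Among the lower genes, the diabetic value of day 11 was at least 2-fold below that of day 5 in 4 and at least 2-fold above it in 0.

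The leading genes were not alike in their course. The gene ranked the twelfth on the higher side had a log2 ratio of 5.91 on day 5 and 5.93 on day 11, with values of 139 and 8353 on day 5 and of 522 and 31737.4 on day 11. The ratios were close to equal, while the level was higher on day 11 in both conditions. The ninth had values of 1962 for control and 1910 for diabetic callus at the earlier time, but of 58.3 and 4904 at the later one. There the pools of day 5 were nearly level, and the control pool of day 11 was the low one. The eleventh had values of 8.27 and 10.3 on day 5 and of 6.39 and 393 on day 11, so that only 1 of 4 pools was bright.

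On the lower side the genes of rank 3 and 4 had large ratios at both times. The third had values of 2200 on the control and 43.4 on the diabetic array of day 5, and of 1747 and 28.5 on those of day 11. The gene after it had 4603 and 113, then 4313 and 74.4. In both genes the control pools of the days were close to each other and the diabetic pools were low on both days. The sixth differed from these, with values of 3.25 and 4.23 on day 5 and of 309 and 8.38 on day 11, where the control pool of day 11 was the 1 bright pool.

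**Figure D2:**
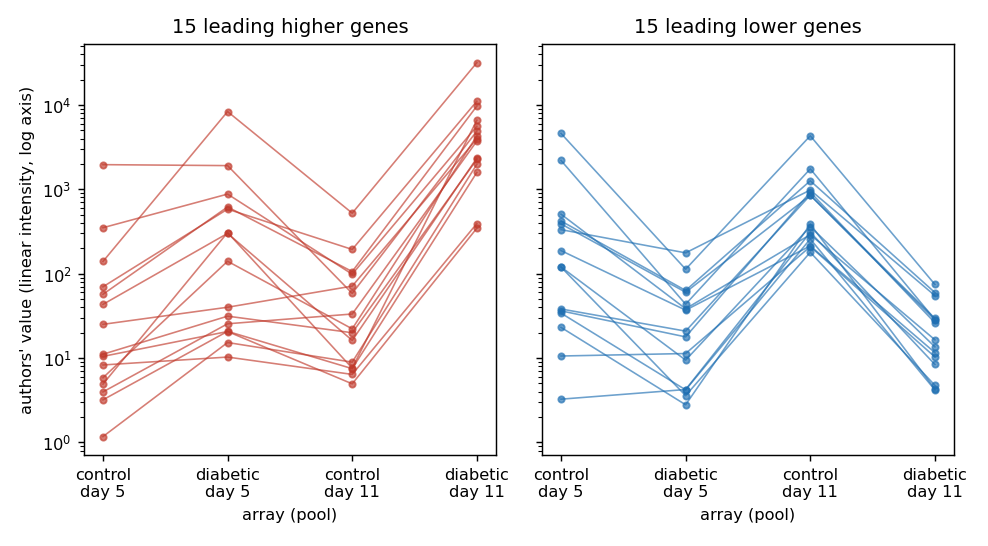
Authors' values (linear intensity on a log axis) of the 15 leading higher and the 15 leading lower genes of day 11 on each of the 4 arrays, 1 line per gene. The diabetic pool of day 11 is the brightest for all 15 higher genes, and the control pool of day 11 for 12 of the 15 lower genes. The genes were picked by their day 11 ratios, which favours this.

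The called genes as a whole can be placed among the 4 pools in the same way. These counts use the arrays on which the genes were picked, so they describe and support nothing. Of the 1172 higher genes with a value on all 4 arrays, 65.2% had their highest value in the diabetic pool of day 11 and 84.9% their lowest in the control pool of day 11. Over all 14683 genes with a value on all 4 arrays, these shares were 19.6% and 39.7%. The higher genes had a median value of 19.1 on the control and 28.1 on the diabetic array of day 5, and of 11.5 and 44.0 on those of day 11. Of the 1043 lower genes, 77.9% had their highest value in the control pool of day 11 and 67.1% their lowest in the diabetic pool of day 11, beside 20.1% and 28.4% of all genes. Their median values in the same order were 25.3 and 12.6, then 39.9 and 11.2.

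Some genes set 1 pool apart from the other 3. At least 4-fold above every other array were 82 genes on the diabetic array of day 11 and 49 on the control array of day 11, against 16 on the control and 1 on the diabetic array of day 5. At least 4-fold below every other array were 45 genes on the control array of day 11 and 4 on the diabetic array of day 11, against 9 and 3 on the control and diabetic arrays of day 5. All were counted among 14683 genes. The 82 and 49 genes became 36 and 18 with normexp, 39 and 23 with no background subtracted and 37 and 16 with a pseudocount of 25. The 82 genes bright on the diabetic array of day 11 had a median value of 98.5 there, and 41 of them exceeded a value of 100. The 49 bright on the control array of day 11 had a median of 104 there. Whether noise particular to the day 11 arrays contributes to these counts was not tested.

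The higher and lower called genes were 8.03% and 7.18% of the 15075 genes, and their parts of the summed signal were as follows. The 1211 higher genes made up 13.3% of the summed values of the diabetic array and 3.70% of those of the control array of day 11. On day 5 the same genes held 8.89% in diabetic and 5.88% in control callus. The 1083 lower genes made up 1.79% of the diabetic and 6.88% of the control sum on day 11, and 2.25% and 4.47% on day 5. The genes were called on the day 11 arrays, which sets the direction of the day 11 shares, so these shares support nothing. The bulk of the signal came from genes common to both conditions. The 100 brightest genes held 28.5% of the diabetic and 27.0% of the control sum, and 76 of them were shared. Among the 124 genes in either set of 100, 19 were past 2-fold on the higher and 5 on the lower side. Of the 1000 brightest genes on each array 824 were shared, and in the union of 1176 genes 130 were higher and 88 lower. The counts in the unions of 124 and 1176 genes stand beside 8.03% higher and 7.18% lower among all 15075 genes. Being bright on either array was enough to enter a union, which favours genes past 2-fold.

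Genes listed on 1 of the day 11 arrays were mostly dim. Their median value was 1.29 for the 888 listed in diabetic callus and 1.33 for the 786 listed in control callus. A bound was computed against the higher of the lowest listed value on the other array, 0.88, and the net signal of the gene there. By this bound 60 genes lay at least 4-fold above control and 64 at least 4-fold below it, and 17 and 16 were at least 10-fold apart in the same order. Set against the highest negative control spot of the other array, 4.55 in control and 3.40 in diabetic callus, 7 and 9 genes remained at least 4-fold apart. Set against the highest spot without a probe there, 1 and 2 remained so. The most extreme had a control value of 465, at least 528-fold above its diabetic value by the bound, 137-fold above the highest negative control spot and 28.2-fold above the highest spot without a probe. It was listed at 3.19 on the control and 5.91 on the diabetic array of day 5. The most extreme in the other direction was at least 101-fold higher by the bound, with a diabetic value of 89.0. It was 19.6-fold above the highest negative control spot and 4.87-fold above the highest spot without a probe. On day 5 it had values of 0.93 and 5.69. For 5 of the genes listed in diabetic callus the control spot carried a bad quality flag, so no bound was set.

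The day 5 pools share no animal or array with those of day 11 and give a second look at the same contrast. Among the 15408 genes listed on both arrays of day 5, 497 (3.23%) lay past 2-fold on the higher and 794 (5.15%) on the lower side, 8.38% in either direction. Past 4-fold were 56 higher (0.363%) and 137 lower genes (0.889%), together 1.25%. Lower genes outnumbered higher ones on day 5, except with the local background subtracted, which gave 2440 higher and 1652 lower genes. With 1 array per group the difference between the days could not be tested. The robust SD of the log2 ratio was 0.44 on day 5 and 0.51 on day 11, so the bulk of the genes was also somewhat more scattered on day 11.

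Genes with larger ratios on day 11 had larger ratios on day 5. Among higher genes, the median day 5 log2 ratio was 0.46 for those 2-fold to 4-fold apart on day 11, 0.76 for 4-fold to 8-fold, 0.93 for 8-fold to 16-fold and 1.51 for 16-fold and over. Among lower genes the same steps gave -0.63, -1.10, -1.53 and -2.23. Of the 55 genes at least 16-fold higher on day 11 with values on day 5, 52 were higher on day 5 too, and 39 of the 55 (70.9%) were so by at least 2-fold. Of the 36 genes at least 16-fold lower, 33 were lower on day 5, and 27 of the 36 (75%) were so by at least 2-fold. Of genes under 2-fold apart on day 11, 65.5% of the higher and 61.9% of the lower ones had the same direction on day 5. By at least 2-fold it was 1.72% and 4.08%. Of all 15408 genes listed on both day 5 arrays, 8096 were higher on day 5. In each step the day 5 medians were smaller in size than the day 11 ratios. The genes were chosen for their size on day 11, which favours this.

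**Figure D3:**
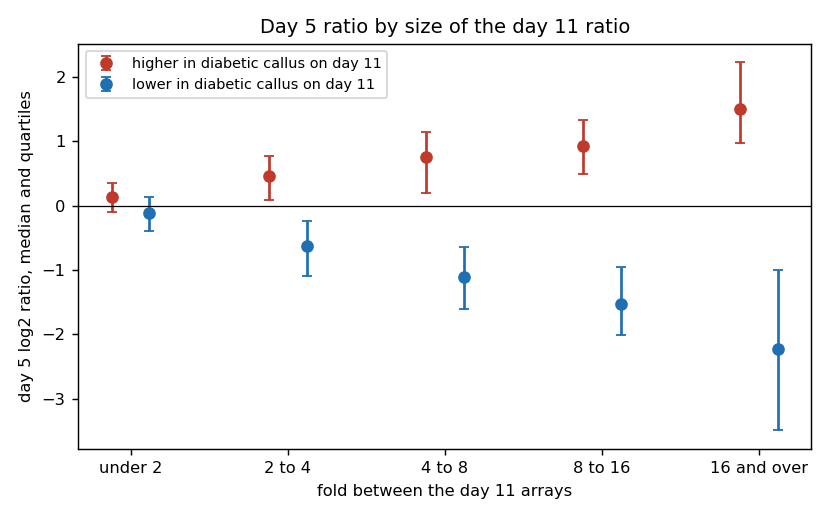
Median log2 ratio of diabetic over control callus on day 5 (points, bars are the quartiles) for genes grouped by their fold on day 11, which runs from under 2 to 16 and over. The medians move from 0.13 to 1.51 for genes higher and from -0.11 to -2.23 for genes lower in diabetic callus on day 11.

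The lists of the 2 days overlapped in part. Of the 14683 genes with a value on all 4 arrays, 269 were at least 2-fold higher on both days, which is 23.0% of the day 11 list of 1172 and 60.3% of the day 5 list of 446. At least 2-fold lower on both days were 401 genes, 38.4% of the 1043 of day 11 and 53.5% of the 749 of day 5. The day 5 list of 446 is shorter than the day 11 list of 1172, so most of the latter could not be on it. Among all 15408 genes listed on both day 5 arrays, 3.23% were past 2-fold on the higher and 5.15% on the lower side. A further 28 genes passed 2-fold in opposite directions, of which 20 were higher on day 11 and lower on day 5 and 8 the reverse. That count was 5 with normexp and 597 with the local background subtracted, where 564 genes were higher on both days. Across the 14683 genes the log2 ratios of the days gave Pearson's r as 0.57 and Spearman's rho as 0.48. This is a correlation across genes, which share the arrays and are not independent. It fell to 0.09 when the local background of each spot was subtracted in place of the level of the blank spots, over 13796 genes.

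**Figure D4:**
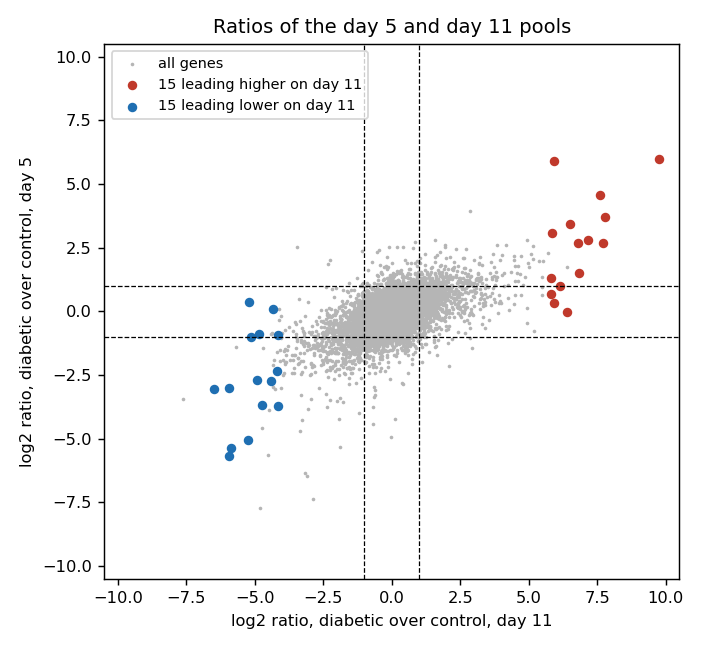
Log2 ratio of diabetic over control callus on day 5 (vertical axis) against that on day 11 (horizontal axis) for 14683 genes with a value on all 4 arrays, dashed lines at 2-fold. The 15 leading higher genes of day 11 (red) lie between -0.04 and 5.97 on day 5, and the 15 leading lower genes (blue) between -5.66 and 0.38.

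Of the 15 leading higher genes of day 11, 14 were also higher in diabetic callus on day 5 and 11 of them by at least 2-fold. Of the 15 leading lower genes, 13 were also lower on day 5 and 11 by at least 2-fold. Both counts include genes with a day 5 value below the highest negative control spot, among them ENSRNOG00000013228 and ENSRNOG00000036603. Of all 15408 genes listed on both day 5 arrays, 8096 were higher on day 5. Past 2-fold on day 5 were 3.23% on the higher and 5.15% on the lower side. In none of the 30 was the day 5 ratio the larger in size. The genes were chosen for the size of their day 11 ratio, which favours this.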

How the data were processed

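The values are single-colour intensities. Per the labels' protocols, tissue of 5 animals was pooled, RNA was amplified and Cy5-labelled, and per the file headers the spot median and local background intensity at 635 nm are given. For the scanner and the genome build the entry is "not given in the sources used here". In the authors' deposited table each intensity followed the spot median minus the mean of the 5808 blank spots, times 0.511 on the control and 0.598 on the diabetic array of day 11. Null genes were those with a bad flag or with a spot median under a limit, taken as 2 SD above the mean of blank spots trimmed by 5% on either side. On the control array of day 11, 9 listed genes lay under it.

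Log2 ratios of these values were computed in Python 3.11.15, over genes listed on both arrays and with no pseudocount. With 1 array per group no test was run, and genes are described at 2-fold and 4-fold. Leading genes had to exceed the median mean signal of such genes, 29.1, and were ranked by log2 ratio, 15 each way. The rule also asked for a symbol and for members of 32 gene lists. With no symbols these parts were dropped, as was naming genes listed on 1 array or opposite between days. Unnamed genes are given by rank. The comparison, rule and lists were chosen with earlier results of these data known. The ratio code was tested on simulated data. Alternatives used normexp in limma 3.58.1 (R 4.3.3, offset 50) with quantile normalization, quantile or 75th percentile scaling, local or no background, a pseudocount of 25, stricter filters and 4-fold. Subtraction of block medians, and the use of these settings on day 5 and all 4 arrays, were chosen after seeing the data.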

Additional observations from a re-analysis of the deposited data

Results flagged for a closer look

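For 28 of 14683 genes the diabetic over control ratio passed 2-fold one way on day 11 and the other way on day 5. The change between the days was not tested, since each group is 1 array, and the count moved with the processing as given below.

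Spots outside the comparison often exceeded the blank-spot limit, beside 7.16% of blank spots on the control and 7.64% on the diabetic array of day 11. Of the 809 spots marked as lacking a probe, 47.6% exceeded it in control and 41.5% in diabetic callus. Of the 96 negative control spots, 49.0% and 69.8% did so. Of the 521 QC probes, 69.1% and 70.1% did so. The values of these spots were low, with medians of 0.81 and 0.70 for spots lacking a probe, 0.81 and 1.36 for negative controls and 2.94 and 3.41 for QC probes.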

How the results depend on the processing

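Counts are given in 1 order: higher and lower on day 11, then higher, lower and opposite on both days, then genes 4-fold above all other arrays on the diabetic and the control array of day 11. The values as reported were 1211 and 1083, then 269, 401 and 28, then 82 and 49. With normexp and quantile normalization they were 356 and 349, then 59, 88 and 5, then 36 and 18. With no background subtracted they were 415 and 415, then 73, 101 and 6, then 39 and 23. With a pseudocount of 25 they were 426 and 356, then 83, 90 and 7, then 37 and 16. These settings shrink the ratios of dim genes by construction. Among brighter genes, where fewer were counted, they were 536 and 454, then 139, 151 and 12, then 40 and 23. At 4-fold they were 315 and 322, then 30, 66 and 3. With the local background subtracted, 2538 genes were higher and 2014 lower on day 11, 564 were higher on both days and 597 opposite, of which the cause was not tested. There 690 of the 1211 higher and 563 of the 1083 lower genes remained. With the negative control limit, 18 genes were opposite and 29 stood above all other arrays on the control array of day 11, and fewer genes were counted. The other 27 of 66 counts stayed within 1.5 times, which includes all those with quantile or 75th percentile scaling or block medians subtracted. Under these 3 the higher and lower genes of day 11 turned to 1123 and 1154, 1124 and 1154, and 1123 and 1152, so which direction is more frequent depends on the scaling. The 4 named genes kept their direction in all 28 computations, with 18 of the values moved by more than the SD of the even positive control. The computations reuse the spots on which these genes were picked as extreme, so the kept direction is no separate support. Medians of gene lists were not run, for lack of symbols. No paired analysis was possible because each group is 1 array and the labels carry no replicate numbers. The number of arrays limits the precision, as does, for dim genes, the signal over background.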
